A study of Mus musculus with 8 samples.

Results

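The genes described here are 9 that encode the junctions and surface adhesion of epithelial sheets: the claudins Cldn3, Cldn4, Cldn7 and Cldn18, occludin (Ocln), the junctional adhesion molecule JAM-A (F11r), the scaffold ZO-1 (Tjp1), E-cadherin (Cdh1) and the epithelial cell adhesion molecule (Epcam). They were taken by symbol from the 22756 genes in the deposited tables, and all 9 were found. RNA was sequenced from distal lung cells of adult mice after lavage, dissection and magnetic depletion of CD45+ leukocytes, with 8 libraries in 4 groups. The α7G mice carry Chrna7-IRES-tauGFP, in which the gene of the nicotinic acetylcholine receptor α7 also drives a tau-GFP reporter. The α7E260A:G mice carry the same reporter and, in α7, the E260A change, which restricts the calcium signal of the receptor. Both are on a largely C57BL/6 background. Within each genotype, 1 male and 1 female library came from mice exposed to cigarette smoke (CS) on 5 days a week for 4 months, and 1 male and 1 female library from unexposed controls. Every mouse therefore carried the reporter, no group had an unmodified Chrna7, the number of mice behind a library is not given in the sources used here, and the 2 libraries of a group differ in sex. All p-values measure the spread between these libraries only.

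Tight junctions seal the space between neighbouring epithelial cells near the apical surface. Claudins form the paracellular strands and set which ions pass, occludin and JAM-A sit beside them in the membrane, and ZO-1 ties them to actin. Below the seal, E-cadherin holds cells together in the adherens junction, and Epcam, a surface glycoprotein of most epithelia, binds claudin-7 and keeps it in the membrane. In the alveolus claudin-18 is a characteristic strand protein, with claudin-3 and claudin-4 in type II cells, and claudin-4 is known to increase in injured alveolar epithelium.

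The promoters of the 3 genes that differed most between genotypes, and of Cldn4, the neighbour of Cldn3, are shown so that a reader can see what precedes these genes. Each is the 250 bases before a RefSeq start, read on the strand of the gene in GRCm38.p6. Of the 9 genes, 8 had a promoter in the RefSeq table, with 11 starts between them, and Cdh1 had none. Capitals mark a match on either strand to CAGGTG (the E-box of the Snail and Zeb repressors), AACNGGTT (a grainyhead-like element), GGGCGG (a GC box) or TGANTCA (an AP-1 element).
Cldn3, chr5:134985964-134986213, + strand: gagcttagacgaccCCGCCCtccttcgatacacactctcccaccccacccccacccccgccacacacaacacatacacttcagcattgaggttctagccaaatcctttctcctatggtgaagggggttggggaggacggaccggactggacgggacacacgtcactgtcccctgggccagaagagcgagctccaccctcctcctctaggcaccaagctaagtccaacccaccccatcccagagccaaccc
Cldn4, chr5:134946935-134947184, - strand: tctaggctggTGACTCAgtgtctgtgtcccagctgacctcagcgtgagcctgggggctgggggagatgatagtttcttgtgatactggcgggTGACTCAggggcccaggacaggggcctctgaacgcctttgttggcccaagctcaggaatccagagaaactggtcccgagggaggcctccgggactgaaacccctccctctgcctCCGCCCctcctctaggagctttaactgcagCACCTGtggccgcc
Cldn18, upstream start, chr9:99717268-99717517, - strand: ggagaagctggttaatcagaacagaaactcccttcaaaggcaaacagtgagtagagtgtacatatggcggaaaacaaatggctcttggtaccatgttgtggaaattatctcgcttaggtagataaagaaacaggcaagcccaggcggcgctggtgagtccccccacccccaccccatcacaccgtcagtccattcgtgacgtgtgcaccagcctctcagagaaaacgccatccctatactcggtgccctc
Epcam, chr17:87635729-87635978, + strand: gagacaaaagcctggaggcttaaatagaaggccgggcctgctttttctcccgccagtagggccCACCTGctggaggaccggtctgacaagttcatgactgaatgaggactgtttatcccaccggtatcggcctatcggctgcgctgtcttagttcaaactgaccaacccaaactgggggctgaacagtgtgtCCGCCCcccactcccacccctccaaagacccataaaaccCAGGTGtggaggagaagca
CAGGTG was in 5 of the 11 promoters, against 17.2% of all 32851 promoters of the same length. GGGCGG was in 8 of 11 against 32.7%, TGANTCA in 2 of 11 against 6.75%, and AACNGGTT in 0 of 11 against 1.79%. The Epcam window held CAGGTG 2 times and the Cldn4 window held TGANTCA 2 times, whereas neither Cldn18 window held any of the 4 motifs. These are matches of letters, not measured binding. The 11 windows had 51.2% to 69.2% G and C, against a median of 52.4% over all promoters, and the 2 Ocln windows overlap in part. How far base composition goes with the matches was not tested. Cldn18 has 2 starts, and counts per gene do not separate them. In the mm9 build used for the counts, Cldn3 (chr5:135462084-135463342) and Cldn4 (chr5:135420996-135422804) lie 39279 bases apart and are transcribed away from each other.

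Library totals ran from 8020726 to 10944100 counts over coding sequence (CDS), so that 3 counts equal 0.274 to 0.374 reads per 1000000 (RPM). Of the 9 genes, 8 reached a mean of 200 counts and were tested among 7189 genes. Cldn4, with a mean of 51.6 counts and as few as 19 in a library, did not, and its fitted values come from a wider set of 14140 genes. Two-sided exact permutation tests of mean RPM, 4 libraries against 4, were run for 9 genes in 2 comparisons, and the smallest p they can give is 0.0286. They treat all 8 libraries as exchangeable. Libraries were not kept paired by sex, nor by exposure or genotype, so these p-values leave that pairing out. The label describes nearly pure epCAM+ cells, but the leukocyte gene Ptprc (CD45) stood at 771 to 1935 RPM and the alveolar macrophage gene Marco at 162 to 1618 RPM, so RNA of other cells was present too. Chrna7 was at 0 to 0.487 RPM and cannot check the genotype labels. The α7E260A:G control pair differed most in how counts depended on CDS length, with a slope over the tested genes, in log2 units for each doubling of length, of 0.41 in the male library and -0.24 in the female one. The slopes were 0.19 and -0.20 in the α7E260A:G CS pair, 0.23 and 0.06 in the α7G controls, and -0.24 and -0.20 in the α7G CS pair.

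Per kilobase of CDS, F11r and Epcam stood highest in α7G mice, at 201 ± 12.4 and 185 ± 36.3 RPM per kilobase (RPKM; SD, n = 4), and were followed by Cldn3 at 161 ± 31.3. Cldn7 at 92.8 ± 16.6 and Cdh1 at 81.6 ± 30.2 RPKM overlapped in their spread, and Cldn18 (46.9 ± 16.6), Ocln (24.9 ± 6.31), Tjp1 (13.6 ± 4.53) and Cldn4 (11.8 ± 7.40) were lower. In α7E260A:G mice F11r again led at 193 ± 31.7 RPKM, but Cldn3 (91.9 ± 16.6) and Epcam (90.5 ± 6.56) were then level, and Cldn18 at 14.6 ± 4.47 was below Ocln at 24.4 ± 3.33 RPKM. The plot of the 9 genes by library shows the underlying RPM values.

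**Figure D1:**
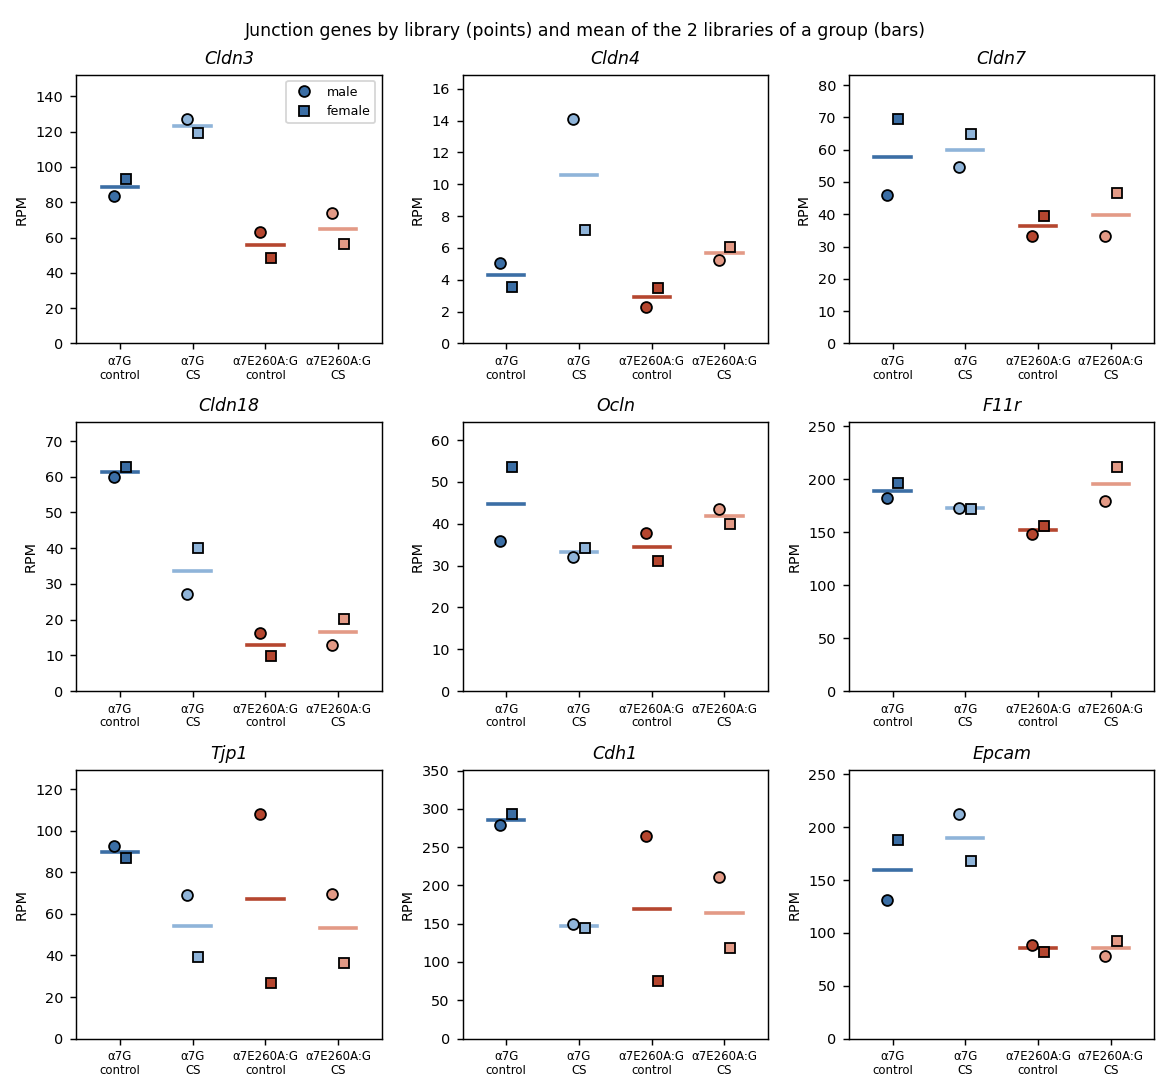
Level of each of the 9 junction genes (vertical axis, RPM) in the 4 groups (horizontal axis); circles are male and squares female libraries, and each bar is the mean of the 2 libraries of a group. For Cldn3, Cldn18 and Epcam all 4 α7E260A:G libraries sit below all 4 α7G libraries, and for Cdh1 and Tjp1 the male and female α7E260A:G control libraries are far apart.

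The first comparison asked how the α7 genotype, over both exposures, relates to junction genes. Cldn3, Cldn18 and Epcam were lower in every α7E260A:G library than in any α7G library, by 1.75, 3.21 and 2.04 times in mean RPM, and Cldn7 was lower by 1.54 times with overlapping libraries. Ocln and F11r were at nearly the same mean level in the 2 genotypes. Cdh1 and Tjp1 varied more within a genotype than between genotypes. None of the 8 tested genes passed an adjusted p of 0.05 in the edgeR quasi-likelihood fit, in which 0.0835% of all tested genes did, while 3 of the 8 had an unadjusted p under 0.05 against 11.9% of all tested genes. The same 3 genes were called by DESeq2, which called 423 of the 7189 tested genes. Over the 8 genes the median log2 fold change was -0.42, against 0.04 over all tested genes, and 6 of 8 were below 0, against 43.9%.

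Cldn18 showed the widest gap. In α7G mice it was at 59.9 (male) and 62.8 (female) RPM in controls and at 27.2 and 40.0 RPM after CS, and in α7E260A:G mice at 16.3 and 9.69 RPM in controls and 13.0 and 20.2 RPM after CS. The highest α7E260A:G library was thus below the lowest α7G library. The means were 47.5 ± 16.9 and 14.8 ± 4.53 RPM (SD, n = 4, exact permutation p = 0.0286), and the fitted log2 fold change was -1.57 (SE 0.26, edgeR adjusted p = 0.105). It was -2.11 (SE 0.37) between control libraries and -1.03 (SE 0.36) between CS libraries, the same sign within each exposure, and neither value passed adjustment (edgeR adjusted p = 0.525 and 0.476). Without the female α7E260A:G control library the edgeR adjusted p of Cldn18 was 0.0342 and without the male one 0.0383, against 0.149 to 0.400 without each of the other 6 libraries. Without the female library Cldn3 and Epcam also passed (edgeR adjusted p = 0.0470 and 0.0483). These fits called 275 of the 7189 tested genes without the female library and 121 without the male one, against 6 in the fit of all 8 libraries.

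Epcam, whose protein also served as the purity marker of the preparation, was at 131 and 188 RPM in male and female α7G controls and at 212 and 168 RPM after CS. In α7E260A:G mice its 4 values lay close together, at 88.8 and 82.3 RPM in controls and 78.5 and 92.3 RPM after CS. The genotypes did not overlap, with means of 174.8 ± 34.4 and 85.5 ± 6.19 RPM (SD, n = 4, exact permutation p = 0.0286). The log2 fold change was -0.96 (SE 0.21, edgeR adjusted p = 0.116).

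Cldn3 was at 83.7 and 93.4 RPM in male and female α7G controls, 127 and 119 RPM in α7G after CS, 63.4 and 48.2 RPM in α7E260A:G controls and 73.8 and 56.1 RPM in α7E260A:G after CS. Both libraries of every α7E260A:G group were below both libraries of every α7G group. The means were 105.8 ± 20.6 and 60.4 ± 10.9 RPM (SD, n = 4, exact permutation p = 0.0286), with a log2 fold change of -0.75 (SE 0.14, edgeR adjusted p = 0.106). Libraries that did not overlap, with α7E260A:G lower, were seen for 5.15% of all tested genes, and for 3 of the 8 here, and 8.14% of all tested genes reached the smallest exact p in either direction.

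Cldn7, the claudin that Epcam binds, was at 45.9 and 69.4 RPM in α7G controls, 54.7 and 65.0 RPM in α7G after CS, 33.3 and 39.6 RPM in α7E260A:G controls and 33.2 and 46.5 RPM in α7E260A:G after CS (male, then female). The female α7E260A:G CS library reached above the male α7G control library, so the genotypes just overlapped. The means of 58.8 ± 10.5 and 38.1 ± 6.32 RPM differed with an exact permutation p of 0.0571 (n = 4), and the log2 fold change was -0.54 (SE 0.26, edgeR adjusted p = 0.494). Each α7E260A:G library was below the α7G library of the same sex and exposure in all 4 pairs for Cldn3, Cldn4, Cldn7, Cldn18 and Epcam. For Cldn4 the female control pair was nearly level, at 3.47 RPM in α7E260A:G and 3.52 RPM in α7G, from counts of 38 and 33. Its genotypes overlapped (exact permutation p = 0.257, n = 4). No share of all tested genes was taken for this count of pairs.

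Ocln and F11r, the non-claudin membrane proteins of the tight junction, had genotype means within the spread of their libraries. For F11r they were 180.9 ± 11.2 RPM in α7G and 173.8 ± 28.5 RPM in α7E260A:G (SD, n = 4, exact permutation p = 0.629), and for Ocln 38.99 ± 9.86 and 38.1 ± 5.21 RPM (exact permutation p = 0.914, n = 4). The log2 fold changes were 0.01 (SE 0.18) and 0.03 (SE 0.19), edgeR adjusted p = 0.993 and 0.986, and both turned negative, to -0.07 and -0.03, with library sizes alone as the scale.

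Cdh1 and Tjp1 gave no stable genotype value. Cdh1 was at 264 RPM in the male and 74.7 RPM in the female α7E260A:G control library, against 279 and 293 RPM in α7G controls. Tjp1 was at 108 and 26.6 RPM in the same α7E260A:G pair, against 93.0 and 86.8 RPM in α7G controls. The male library of that pair was thus at or near the α7G level and the female one far below it for both genes. The log2 fold changes were -0.30 (SE 0.32) for Cdh1 and -0.23 (SE 0.38) for Tjp1 (edgeR adjusted p = 0.836 and 0.918). Without the male α7E260A:G control library both were -0.78, and without the female one they were -0.03 and 0.07. Cdh1 and Tjp1 have the longest CDS of the 9 genes, at 2652 and 5295 bases against a median of 1548 over all tested genes, and the length slopes of that pair have opposite signs. With an offset for CDS length in each library the log2 fold changes were -0.42 for Cdh1 and -0.59 for Tjp1 (edgeR adjusted p = 0.291 and 0.144).

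**Figure D2:**
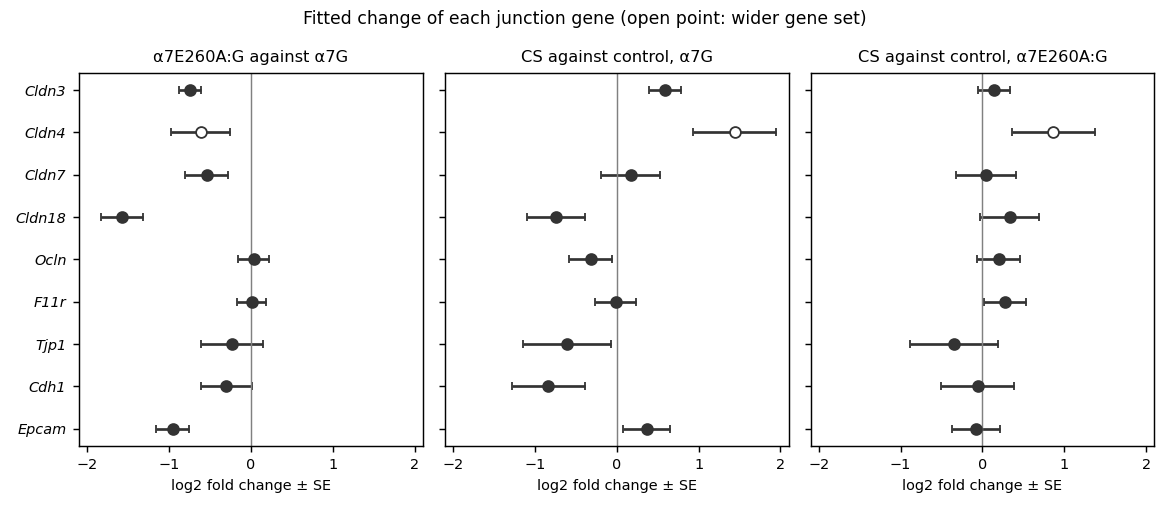
Fitted log2 fold change (horizontal axis, ± SE) of each of the 9 junction genes for α7E260A:G against α7G over both exposures (left), CS against control in α7G (middle) and CS against control in α7E260A:G (right); the open point is Cldn4, fitted in the wider set of 14140 genes. The left panel holds the change furthest from 0, -1.57 for Cldn18, and the Ocln and F11r points there lie at 0.03 and 0.01, turning negative with library sizes alone as the scale.

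Cell type markers also had different means in the 2 genotypes. Their lists were chosen with earlier results of these data known. No share of all genes was taken for the counts of means given here, and 43.9% of all tested genes had a fitted log2 fold change below 0. All 11 markers of alveolar type II (ATII) cells, all 10 of type I (ATI) cells and all 6 general epithelial markers (keratins, Cd24a and Muc1) had lower means in α7E260A:G. The summed ATII level was 20701 to 31398 RPM in α7G and 4916 to 15166 RPM in α7E260A:G, and the summed ATI level 553 to 668 against 273 to 476 RPM. The general epithelial sum, at 1227 to 2116 against 881 to 1658 RPM, overlapped between genotypes. All 17 alveolar macrophage markers found were higher in α7E260A:G, with sums of 36082 to 63736 against 19862 to 30636 RPM, while the sum of 12 leukocyte markers overlapped (6942 to 9677 RPM in α7G, 7428 to 8716 RPM in α7E260A:G). Of the other lists, 7 of 8 club, 10 of 12 ciliated, 11 of 12 endothelial and 4 of 4 mesothelial markers had lower means in α7E260A:G, and 7 of 10 fibroblast and smooth muscle markers higher means. The summed club level was 50553 to 80598 against 21578 to 53034 RPM, and no defining marker of any list was at 0 throughout. In bulk libraries fewer cells of a type and less RNA per cell cannot be told apart.

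**Figure D3:**
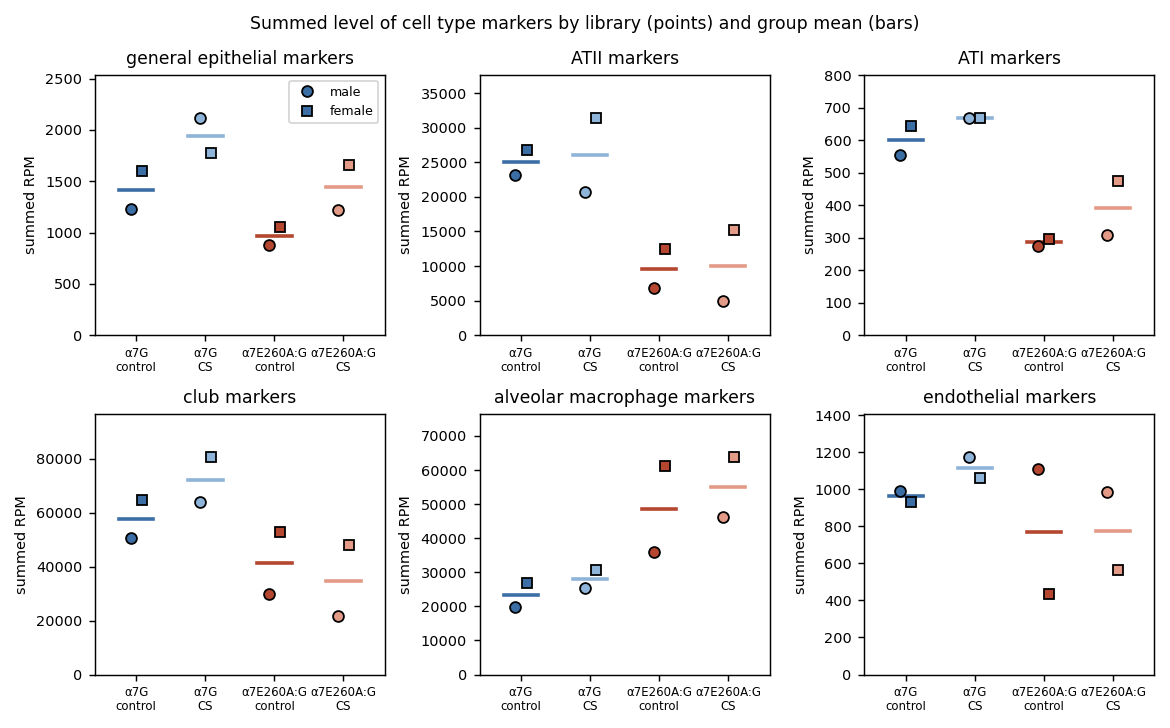
Summed level of 6 cell type marker lists (vertical axes, RPM) in the 4 groups (horizontal axes); circles are male and squares female libraries, and bars are group means. The ATII and ATI sums of all 4 α7E260A:G libraries lie below those of all 4 α7G libraries, and the alveolar macrophage sums lie above them.

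Relative to the summed general epithelial markers, the genotype differences of Cldn18, Epcam and Cldn3 were smaller and did not reach the smallest exact p. On the log2 scale the difference was -1.13 for Cldn18 (exact permutation p = 0.0571, n = 4), -0.52 for Epcam (exact permutation p = 0.0857, n = 4) and -0.31 for Cldn3 (exact permutation p = 0.343, n = 4). It was 0.42 for F11r and 0.48 for Ocln (exact permutation p = 0.114 and 0.171, n = 4). The scale moves the log2 difference of every gene by the same amount. That amount depends on the use of the sum, which in α7E260A:G was 0.717 times that in α7G. The median ratio of the 6 markers was 0.573, against 0.570 for Cldn3, 0.489 for Epcam and 0.312 for Cldn18. How much of each difference goes with the share of epithelial RNA was not tested further.

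The mix of the 4 claudins was taken as well, and no claudin had a share that separated all libraries by genotype or by exposure. Counted per CDS base, Cldn18 made up 22.1% and 19.4% of the 4 claudins in the male and female α7G controls. In the other 6 libraries it made up 6.34% to 11.8%, including the α7G CS pair at 8.17% and 11.8%. The genotype means of 15.4% ± 6.49 and 8.35% ± 2.06 (SD, n = 4) overlapped (exact permutation p = 0.114). Cldn3 made up 44.5% to 60.4% and Cldn7 26.3% to 41.4% in all libraries, and Cldn4 at most 6.80%.

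**Figure D4:**
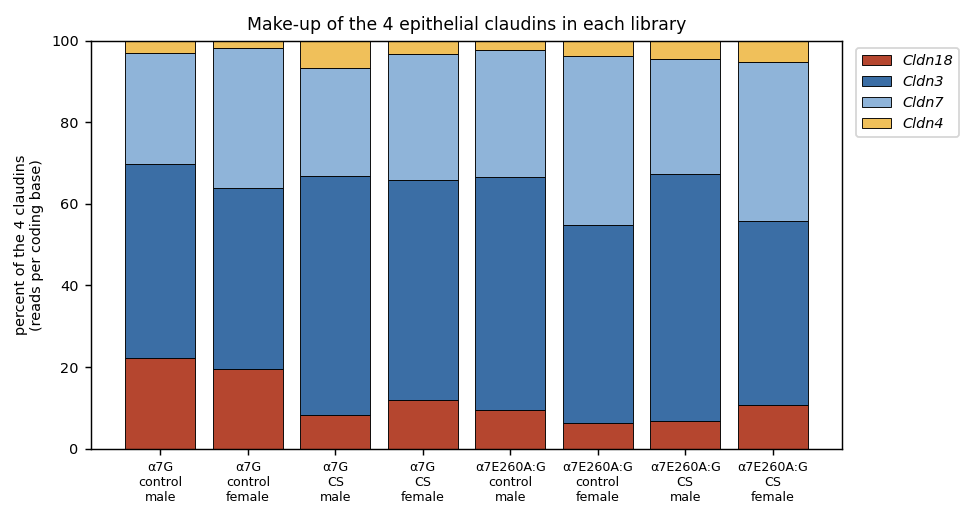
Share of each of the 4 claudins (vertical axis, percent of their summed reads per CDS base) in the 8 libraries (horizontal axis). Cldn18 takes 22.1% and 19.4% in the α7G control libraries and at most 11.8% in the other 6.

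The second comparison asked how 4 months of CS relates to these genes, over both genotypes and within each. Over both genotypes Cldn4 was the gene whose libraries did not overlap. It was at 5.05 and 3.52 RPM in male and female α7G controls and 14.1 and 7.11 RPM after CS, and at 2.31 and 3.47 RPM in α7E260A:G controls and 5.24 and 6.08 RPM after CS. Its lowest CS library was just above its highest control library, from counts of 42 in each. The means were 3.59 ± 1.12 RPM in controls and 8.13 ± 4.04 RPM after CS (SD, n = 4, exact permutation p = 0.0286), a log2 fold change of 1.15 (SE 0.36, edgeR adjusted p = 0.653). All 6 general epithelial markers also had higher means after CS (summed 881 to 1596 RPM in controls and 1222 to 2116 RPM after CS), and relative to that sum the Cldn4 difference was 0.50 on the log2 scale (exact permutation p = 0.114, n = 4). On that scale the other 8 genes had differences of -0.17 to -0.95 after CS. Cldn7 at -0.42 was the one gene with the smallest exact p (exact permutation p = 0.0286, n = 4), with all CS libraries below all controls. The sum itself was higher after CS in each genotype and sex, and no share over all tested genes was taken on that scale. In RPM Cldn7 differed little with CS (exact permutation p = 0.8, n = 4), with a log2 fold change of 0.10 (SE 0.26, edgeR adjusted p = 0.875). Of the other marker lists, 10 of 11 ATII markers had lower means after CS, with overlapping sums of 6879 to 26779 RPM in controls and 4916 to 31398 RPM after CS. For fibroblast and smooth muscle markers 9 of 10 means were higher, with sums of 766 to 2492 and 1758 to 2945 RPM. No share of all genes was taken for these counts of markers. The part of ATII, fibroblast and smooth muscle cells in the changes of the junction genes, Cldn18 included, was not tested. The 4 Cldn4 ratios of CS to control in RPM within a genotype and sex were 2.79, 2.02, 2.26 and 1.75. Of the tested genes, 1.66% had CS libraries all above the controls, and 2.07% reached the smallest exact p in either direction. These shares cover genes with a mean of at least 200 counts, which Cldn4 did not reach. No share was taken over the wider set, so how often genes with counts as low as those of Cldn4 separate in this way is not known. None of the 8 tested genes passed an adjusted p of 0.05 in edgeR or DESeq2, where 0.0% of all tested genes did in edgeR. Only Cldn3 of the 8 had an unadjusted p under 0.05, against 7.61% of all tested genes, with a log2 fold change of 0.37 (SE 0.14, edgeR adjusted p = 0.629).

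In α7G mice the 9 genes went in different directions with CS. Cldn4 and Cldn3 had the highest log2 fold changes, at 1.44 (SE 0.50) and 0.59 (SE 0.20), and Cdh1, Cldn18 and Tjp1 the lowest, at -0.83 (SE 0.45), -0.74 (SE 0.35) and -0.61 (SE 0.54). Epcam was at 0.36 (SE 0.29), Cldn7 at 0.17 (SE 0.37), F11r at -0.01 (SE 0.25) and Ocln at -0.32 (SE 0.26). None of the 8 tested genes passed (lowest edgeR adjusted p = 0.589), as none of all tested genes did (0.0%). Of the 8, 1 (Cldn3) had an unadjusted p under 0.05, against 6.72%. DESeq2 called none of the 8, whereas a fit of the 4 α7G libraries alone, which takes the spread from these libraries, called Cdh1 and Cldn3 and 1152 of the 7189 tested genes. With library sizes alone as the scale the median of all tested genes in this comparison moves from -0.02 to -0.12, and that of the difference between genotypes from 0.03 to 0.15, so that small values are read against these shifts.

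In RPM, Cdh1 was at 279 and 293 in male and female α7G controls and 150 and 145 after CS, a pair of ratios of 0.54 and 0.50 that differed little between the sexes. Cldn18 had ratios of 0.45 and 0.64, and Tjp1, at 69.1 and 39.5 RPM after CS, ratios of 0.74 and 0.45. Cldn3 had ratios of 1.52 and 1.28. Both α7G CS libraries were below both α7G controls for Cdh1, Cldn18, Tjp1, Ocln and F11r, 5 of the 8 tested genes, against 41.5% of all tested genes. They were above them for Cldn3, 1 of the 8, against 23.4%, and for Cldn4.

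The α7G response of all tested genes depended on CDS length. Across 7189 genes, which are not independent replicates, the change in log2 RPM fell with each doubling of length by 0.47 in the male pair and 0.26 in the female pair. The slopes in α7E260A:G were -0.22 in the male and 0.04 in the female pair. With an offset for length in each library, the α7G log2 fold change was 0.14 for Cldn3, -0.28 for Cldn7, 0.07 for Tjp1, -0.55 for Cdh1 and -0.96 for Cldn18. Cldn3 thus came close to 0, Tjp1 and Cldn7 changed sign, and Cldn18, whose CDS of 1013 bases is shorter than the median, moved further from 0.

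**Figure D5:**
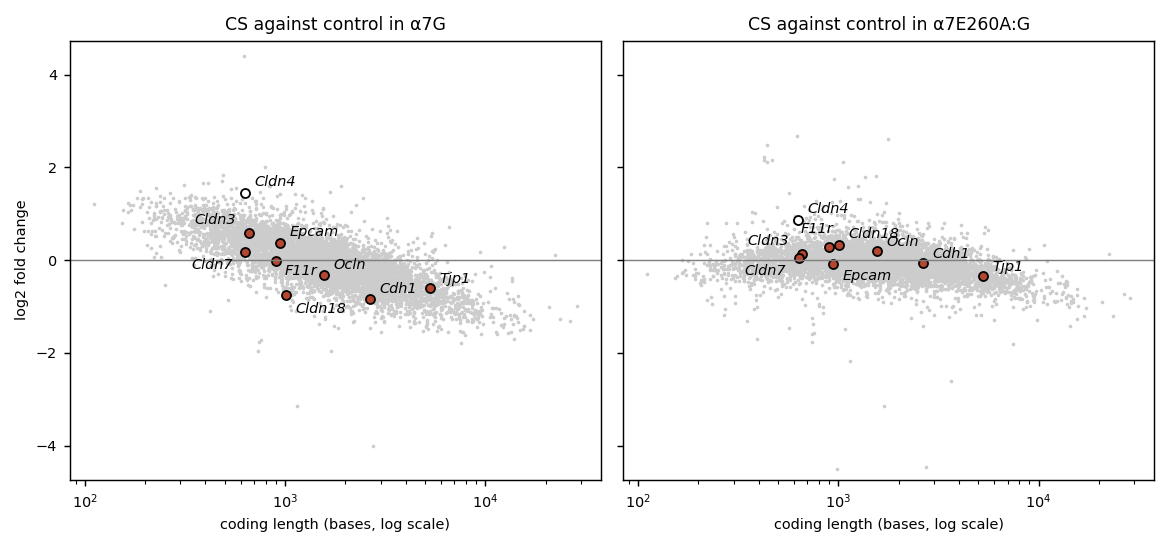
Log2 fold change of CS against control (vertical axis) against CDS length (horizontal axis, bases, log scale) in α7G (left) and α7E260A:G (right); grey points are the 7189 tested genes, and red points the junction genes, with Cldn4 open. In α7G the cloud slopes downward and Cldn18 lies toward its lower edge for its length, while Cldn3, Cdh1 and Tjp1 lie nearer its middle.

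In α7E260A:G mice the log2 fold changes with CS were 0.87 (SE 0.51) for Cldn4, 0.33 (SE 0.36) for Cldn18, 0.27 (SE 0.25) for F11r, 0.20 (SE 0.26) for Ocln and 0.14 (SE 0.20) for Cldn3. Cldn7 was at 0.04, Cdh1 at -0.06, Epcam at -0.08 and Tjp1 at -0.35, with standard errors of 0.29 to 0.54. None of the 8 tested genes was called, and none had an unadjusted p under 0.05, by edgeR, where 0.0% of all tested genes were called and 1.67% had an unadjusted p under 0.05. DESeq2 also called none of the 8. The signs of Cldn7, Cdh1 and Tjp1 turned under the offset for CDS length, to -0.03, 0.09 and 0.07, and the sign of Cldn18 with the left-out library (-0.17 to 0.70).

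Whether the CS response differed between genotypes was tested as an interaction. For the 8 genes the difference (α7E260A:G response minus α7G response) ran from -0.46 for Cldn3 to 1.08 for Cldn18 (SE 0.50, edgeR adjusted p = 0.997 for each of the 8), and 0.0% of all tested genes passed. None of the 8 had an unadjusted p under 0.05, against 1.45%, and DESeq2 called none of them. In RPM, F11r and Ocln had CS libraries below the controls in α7G and above them in α7E260A:G, though the fitted α7G change of F11r was only -0.01 (SE 0.25). F11r went from 183 and 196 RPM in α7G controls to 173 and 172 RPM after CS, and from 148 and 156 RPM in α7E260A:G controls to 179 and 212 RPM after CS. Ocln went from 36.0 and 53.6 to 32.1 and 34.3 RPM in α7G, and from 37.8 and 31.2 to 43.5 and 40.0 RPM in α7E260A:G. This pattern was seen in 2.87% of all tested genes. The differences were 0.29 (SE 0.36) for F11r and 0.52 (SE 0.37) for Ocln.

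Across the 8 libraries the 9 genes fell into loose groups, described here by Pearson's r of log2(RPM + 0.5), which share depth and cell make-up. Cdh1 and Tjp1 followed each other most closely (r = 0.94, n = 8), and Epcam followed Cldn3 (0.88) and Cldn7 (0.87). Cdh1 and Tjp1 have the longest CDS, at 2652 and 5295 bases, whereas Epcam, Cldn3 and Cldn7 have 945, 657 and 633 bases. The length slopes of the libraries ran from -0.24 to 0.41, and the part of CDS length in these r values was not tested. Cldn18 followed Epcam (0.77) and Cldn7 (0.77), and F11r and Tjp1 had a value near 0 (-0.07). The genes whose pattern over the 8 libraries was most like the mean of the junction genes were Pvrl2 (r = 0.995), Bcam (0.987), Ctps (0.985), Emp2 (0.981) and Prpf19 (0.974). Pvrl2 encodes nectin-2, an adhesion molecule of adherens junctions, Bcam a laminin receptor and Emp2 a membrane protein abundant in ATI cells.

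Other junction and related genes, 113 in 8 lists that cover further claudins, tight junction partners, adherens junctions, desmosomes, gap junctions, surface proteases, and the regulators of epithelial and mesenchymal state, gave no call in any comparison. Of them 112 were in the tables and 33 were tested. Between genotypes 10 of the 33 had an unadjusted p under 0.05 in edgeR, against 11.9% of all tested genes, and the lowest adjusted p was 0.106. By list these were 1 of 3 claudins, 1 of 7 tight junction partners, 1 of 7 adherens junction and 1 of 5 desmosome genes. The others were 3 of 5 surface protease genes, 1 of 1 epithelial regulators and 2 of 4 mesenchymal genes. More of the 10 thus came from the protease and regulator lists than from the junction lists. Over the 33 the median log2 fold change was -0.14, against 0.04 over all tested genes, and 21 of the 33 were below 0, against 43.9%. With CS over both genotypes 3 of the 33 had an unadjusted p under 0.05, against 7.61%, with a median of -0.08. Pvrl2 was at 36.9 to 45.5 RPM in α7G and 20.5 to 30.8 RPM in α7E260A:G, without overlap (log2 fold change -0.56, SE 0.15, edgeR adjusted p = 0.176). Tjp3, the ZO-3 scaffold, was at 43.0 to 55.7 and 24.4 to 41.3 RPM, also without overlap (-0.49, SE 0.16, edgeR adjusted p = 0.258). Cldn5, the claudin of endothelial cells, was at 56.7 to 105 and 31.6 to 54.4 RPM (-0.78, SE 0.15, edgeR adjusted p = 0.106). The remaining claudins that were tested, Cldn10 at -0.34 (SE 0.42) and Cldn25 at -0.13 (SE 0.20), and the channel gene Panx1 at -0.36 (SE 0.21) all lay within 2 SE of 0. The polarity genes Prkci (atypical protein kinase C) and Inadl (PATJ) were at -0.31 (SE 0.23) and 0.31 (SE 0.17).

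Of 7 genes of surface proteases and their inhibitors around Epcam, 5 were tested and all 5 had log2 fold changes below 0 between genotypes, against 43.9% of all tested genes, with a median of -0.68. Of the 5, 3 had an unadjusted p under 0.05, against 11.9%. Prss8, the membrane protease prostasin, was at 41.2 to 52.6 RPM in α7G and 19.2 to 30.9 RPM in α7E260A:G (log2 fold change -0.89, SE 0.19, edgeR adjusted p = 0.118). St14, the protease matriptase, was at 48.4 to 69.4 and 23.7 to 43.3 RPM (-0.68, SE 0.18, edgeR adjusted p = 0.172). Spint2, an inhibitor of such proteases, overlapped between genotypes at 92.5 to 182 and 53.2 to 107 RPM (-0.69, SE 0.29, edgeR adjusted p = 0.408). Elf3, an epithelial transcription factor, was at -0.66 (SE 0.25, edgeR adjusted p = 0.349).

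Catenins of the adherens junction and plaque genes of the desmosome had values on both sides of 0. The log2 fold changes between genotypes were -0.29 (SE 0.21) for Jup (plakoglobin), 0.26 (SE 0.23) for Ctnnd1 (p120-catenin), -0.51 (SE 0.21) for the desmosomal plaque gene Pkp3 and 0.18 (SE 0.42) for desmoplakin (Dsp), with edgeR adjusted p from 0.393 to 0.950. Smaller still was the value for the plaque gene Ppl (periplakin), at -0.11 (SE 0.41). Of the mesenchymal genes, Vim (vimentin) was at 2451 to 3038 RPM in α7G and 3352 to 4045 RPM in α7E260A:G, without overlap (0.47, SE 0.19, edgeR adjusted p = 0.401). Zeb2, which encodes a repressor of Cdh1, was at 58.4 to 166 and 102 to 260 RPM with overlap (0.88, SE 0.29, edgeR adjusted p = 0.257). Fn1 (fibronectin) was at 0.44 (SE 0.39). Vim and Zeb2 are also expressed by macrophages, whose markers were higher in α7E260A:G, and the part of these cells was not tested.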

How the data were processed

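Poly(A) RNA of CD45-depleted distal lung cells was sequenced from strand-specific libraries. The authors aligned reads with STAR to mm9 (NCBIM37) and counted them over the CDS of GENCODE M1 genes with HTSeq (versions not given in the sources used here), and the deposited values are raw counts per gene, 1 table per library. All 22756 identifiers matched that annotation. The tables carry no repeat runs.

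Groups came from the sample labels. Counts were fitted with edgeR 4.0.16 (limma 3.58.1, R 4.3.3): TMM scaling, 4 group means, glmQLFit and glmQLFTest, Benjamini-Hochberg adjustment over 7189 genes with a mean of at least 200 counts, called at an adjusted p of 0.05. Immunoglobulin (with Igj), histocompatibility, Gm-numbered and ribosomal subunit genes were left out, following the study. No term for sex entered. Each SE was calculated from the fitted change and its F statistic. Cldn4 was fitted among the 14140 genes kept by filterByExpr. Two-sided exact permutation tests (Python 3.11.15, numpy 2.4.6) covered all 70 arrangements of RPM, which is counts scaled to a library total of 1000000. Floors of 3 counts cover counting error only. The code was tested on simulated data.

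The 9 genes and all lists were chosen with earlier results of these data known. All 9 are named, with the 3 tested genes of each other list furthest from 0 between genotypes and the 5 genes most correlated with the mean of the 9. Alternatives were library size scaling, DESeq2 1.42.0, wider gene sets, a replicate block, a lowess offset for CDS length, single-genotype fits and leaving out each library. Comparisons within one exposure, the scale relative to epithelial markers and the claudin mix were chosen after seeing the data. Promoters are from RefSeq (GRCm38.p6), and their coordinates were not mixed with mm9.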

Additional observations from a re-analysis of the deposited data

Results flagged for a closer look

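Among 36 sets of 4 libraries (each of the 9 genes in each genotype and each exposure), 1 held a library far from the others, and chance alone would flag about 1 set in 20. Cdh1 was at 74.7 RPM in the female α7E260A:G control library, while the next lowest of the 4 control libraries, the male of the same group, was at 264 RPM, a gap of 0.868 of the range of the control libraries. The same female library was also the lowest of the 8 for Tjp1, at 26.6 RPM, for Cldn18, at 9.69 RPM, for Cldn3, at 48.2 RPM, and for Ocln, at 31.2 RPM. It is the library with the highest total, 10944100 counts, and its length slope was -0.24 against 0.41 in the male library of its group; their part in these values was not tested.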

How the results depend on the processing

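Between genotypes 6 genes passed in the reported edgeR fit, and other settings moved this count. It was 423 with DESeq2, 13 with filterByExpr, 69 with every gene of at least 1 count, 476 with the CDS length offset, 1 within the control libraries and 1 within the CS libraries (both chosen after seeing the data), and 1 to 275 with one library left out. Of the junction genes, 3 passed with DESeq2 (Cldn3, Cldn18 and Epcam), 1 (Cldn18) with every gene of at least 1 count, 2 (Cldn18 and Epcam) with the length offset and 0 to 3 with one library left out. The direction of Cldn3, Cldn4, Cldn7, Cldn18 and Epcam between genotypes was kept in all of these. For CS over both genotypes DESeq2 called 39 genes, every gene of at least 1 count gave 1 and leaving out one library gave 0 to 1. In α7G it was 26 with DESeq2 and 1152 in the fit of 4 libraries, which called 2 junction genes. In α7E260A:G it was 11 with DESeq2, 1 with filterByExpr and 3 with every gene of at least 1 count, and the interaction gave 3 with DESeq2. Of 438 refitted log2 fold changes of the 9 genes, 34 changed sign and 15 passed where the reported value did not. The cause of these shifts was not tested.

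The replicate numbers stand for sex. Deviations of same-numbered libraries correlated from -0.13 to 0.84 over 6 pairs of groups, 4 of them over 0.1, so libraries of one sex shared variation in some pairs of groups. The reported fit has no term for sex, because the study averaged the sexes, and this shared variation stays in its spread. With a replicate block the genotype count was 40, and with block and length offset together 676, of which 3 were junction genes (Cldn3, Cldn18 and Epcam), and 2 for CS over both genotypes. The block alone turned Cdh1 with CS in α7E260A:G to 0.0020 and F11r between genotypes to -0.0079, and changed the call of no junction gene.

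Signs also turned as follows. Cldn7 with CS was -0.28 in α7G and -0.034 in α7E260A:G with the length offset, and -0.28 and -0.044 with block and offset. Tjp1 was 0.069 and 0.068 with the offset, and 0.020 and 0.091 with both. Cdh1 in α7E260A:G was 0.085 and 0.11. Between genotypes library size scaling gave -0.028 for Ocln and -0.068 for F11r, the control libraries gave -0.23 and -0.13, the CS libraries gave 0.086 for Cdh1, and on effective library sizes the differences in RPM were 0.799 for Ocln and 2.20 for F11r. With one library left out the genotype values ran from -0.11 to 0.20 for Ocln, -0.78 to 0.070 for Tjp1 and -0.12 to 0.12 for F11r. CS in α7G ran from -0.13 to 0.57 for Cldn7, -0.61 to 0.073 for Ocln and -0.10 to 0.11 for F11r. CS in α7E260A:G ran from -0.36 to 0.39 for Cldn7, -0.17 to 0.70 for Cldn18, -0.95 to 0.73 for Tjp1, -0.61 to 0.87 for Cdh1 and -0.33 to 0.13 for Epcam. With 2 libraries of different sex a group, and 19 to 121 counts for Cldn4, small changes were not detectable.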
